A study of Mus musculus with 6 samples.

Results

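Netrins and SLITs are secreted guidance proteins, and 10 genes of these families were followed in endothelial cells sorted from the spleens of Stab1-/- (KO) and wild-type (WT) mice: the netrins Ntn1 and Ntn4, the UNC5 receptors Unc5a, Unc5b and Unc5c, the ligands Slit1, Slit2 and Slit3, and the ROBO receptors Robo1 and Robo4. They were taken by gene symbol from the deposited expression table, which holds 23337 genes, and all 10 were found. The set was chosen by family and with the difference between KO and WT RPKM values of this table in view, so that difference is described here without a test for these 10 genes. The study examined stabilin-1 (Clever-1), the scavenger receptor encoded by Stab1, in the contacts of spleen vessels with lymphocytes. RNA-seq libraries came from 3 KO samples (KO 2, KO 3 and KO 4) and 3 WT samples (WT 1, WT 3 and WT 4), all C57BL/6 and all labelled as blood endothelial cells gated on CD31 and against CD45. The genotype label names no Cre or other restriction of the deletion to endothelium, and the labels give neither age nor sex. Whether the libraries stem from separate animals is not stated in the labels, so a p-value here reflects library-to-library spread that may be technical.

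Netrins act through receptors of the DCC, neogenin and UNC5 families, and UNC5 receptors mediate repulsion of growing axons and can promote cell death when no netrin is bound. SLITs act through ROBO receptors, which repel axons and restrain the migration of leukocytes. In blood vessels UNC5B and ROBO4 are the best known of these receptors, netrin-4 is also a component of basement membranes, and UNC5A and SLIT1 are known mainly from the nervous system.

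Levels are RPKM, reads scaled to gene length and library depth, so they can be compared between genes. Reads counted to genes, recovered from the RPKM values, numbered 37358379 to 47991853 per library. Stab1 had 2.32, 2.62 and 2.49 RPKM in KO 2, KO 3 and KO 4, against 21.6, 43.6 and 31.4 RPKM in WT 1, WT 3 and WT 4 (log2 fold change -3.40 ± 0.22 SE, limma adjusted p = 7.15e-05), so the libraries match their genotype labels. Log2 fold changes throughout are KO minus WT on the log2(RPKM + 0.5) scale, which understates changes of low genes. Defining endothelial transcripts were abundant in both groups. The 13 markers listed summed to 4272 to 4812 RPKM in KO and 3827 to 4455 RPKM in WT. With a call meaning a limma adjusted p under 0.05, 0 of the 13 were called, against 1.94% of all genes tested. An unadjusted limma p under 0.05 was found for 3, against 15.7% of all genes tested. Groups did not overlap for 2, both higher in KO, against 10.7% of all genes tested.

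The promoters of Unc5a, Unc5b and Robo4 are printed because the balance of the UNC5 pair differed between the genotypes, and because Robo4 was the most abundant of these receptors. Each window runs from 250 bases before to 50 bases after the transcript start that RefSeq gives on GRCm38.p6, 5′ to 3′ on the gene's strand. Capitals mark the GC box, GGGCGG on either strand, with overlapping matches counted.
Unc5a, chr13:54949161-54949460, plus strand: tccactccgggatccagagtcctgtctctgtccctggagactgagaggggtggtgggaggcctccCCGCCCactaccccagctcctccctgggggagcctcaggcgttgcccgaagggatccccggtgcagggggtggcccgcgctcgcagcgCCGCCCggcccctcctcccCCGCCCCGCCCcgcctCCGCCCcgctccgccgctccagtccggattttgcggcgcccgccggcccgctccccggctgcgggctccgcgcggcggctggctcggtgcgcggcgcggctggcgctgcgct
Unc5b, chr10:60831532-60831831, minus strand: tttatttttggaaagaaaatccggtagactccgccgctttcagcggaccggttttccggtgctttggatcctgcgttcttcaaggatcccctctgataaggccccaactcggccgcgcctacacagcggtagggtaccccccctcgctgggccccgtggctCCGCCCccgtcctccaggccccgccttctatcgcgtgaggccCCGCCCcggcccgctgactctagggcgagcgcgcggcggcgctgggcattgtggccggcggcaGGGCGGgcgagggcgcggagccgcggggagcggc
Robo4, chr9:37401722-37402021, plus strand: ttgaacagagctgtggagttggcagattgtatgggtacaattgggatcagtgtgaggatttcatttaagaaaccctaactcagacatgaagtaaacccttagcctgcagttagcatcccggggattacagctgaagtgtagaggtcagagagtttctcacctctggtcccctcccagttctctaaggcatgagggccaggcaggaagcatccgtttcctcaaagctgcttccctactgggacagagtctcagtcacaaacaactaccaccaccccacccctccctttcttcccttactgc

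The Unc5a window lies inside the annotated span of the gene, downstream of its outer end. It held 5 GC boxes, 37 CpG dinucleotides and 78.3% G or C. The Unc5b window held 3 GC boxes, 36 CpG and 69.7% G or C. The Robo4 window held no GC box, 2 CpG and 50.3% G or C. Both UNC5 promoters were thus CpG-rich and the Robo4 promoter was CpG-poor, against a median of 7 CpG and 52.7% G or C over 32851 RefSeq promoters. A GC box stood in 35.7% of those promoters. Windows were given for 8 of the 10 genes, and the letters of an ETS site, CCGGAAG, which 8.86% of all promoters hold on either strand, were in none of the 8. The letters TATAAA, held by 13.6% of all promoters on either strand, were in the Slit2 window alone among them. A match of letters describes the sequence and does not show binding.

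Unc5a showed the widest separation among the receptors. It had 0.729, 0.332 and 0.641 RPKM in KO 2, KO 3 and KO 4, against 5.60, 9.73 and 6.52 RPKM in WT 1, WT 3 and WT 4. The highest KO library stood far below the lowest WT library, and within KO the values kept above 0. The means were 0.567 ± 0.209 RPKM in KO and 7.28 ± 2.17 RPKM in WT (SD, n = 3 each), a KO mean 12.8-fold lower. These levels rested on 144, 67 and 104 reads in KO and on 928, 1955 and 1184 reads in WT, so counting error is small beside the spread between libraries. The log2 fold change was -2.85 ± 0.24 (SE). With WT 3, the highest WT library, left out, the KO mean was 0.0936 of the WT mean, against 0.0779 with all libraries. In the authors' deposited table Unc5a had a log2 fold change of -3.741 and stood in the list of lower genes. Unc5a (Entrez 107448) lies on chromosome 13 from 54945151 to 55006018 in the RefSeq annotation of GRCm38.p6.

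Of the 10 genes, 6 passed the filter, 1 RPKM or more in 3 or more of the 6 libraries, and Unc5a did so through its WT libraries alone. RPKM values of the 2 genotypes did not overlap for 4 of the 10, Unc5a, Slit1, Slit2 and Slit3, all lower in KO. Of all 17683 genes above 0, 9.3% had non-overlapping values lower in KO. Of the 6 past the filter, 2 did so, against 9.57% of all 11035 genes past it. Nothing is read from these shares, because the genes were chosen with this contrast in view. In the authors' deposited table, which holds 8 of the 10, Unc5a and Slit1 were in the list of lower genes, which takes up 0.851% of that table, and none was in the list of higher genes (0.247%).

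**Figure D1:**
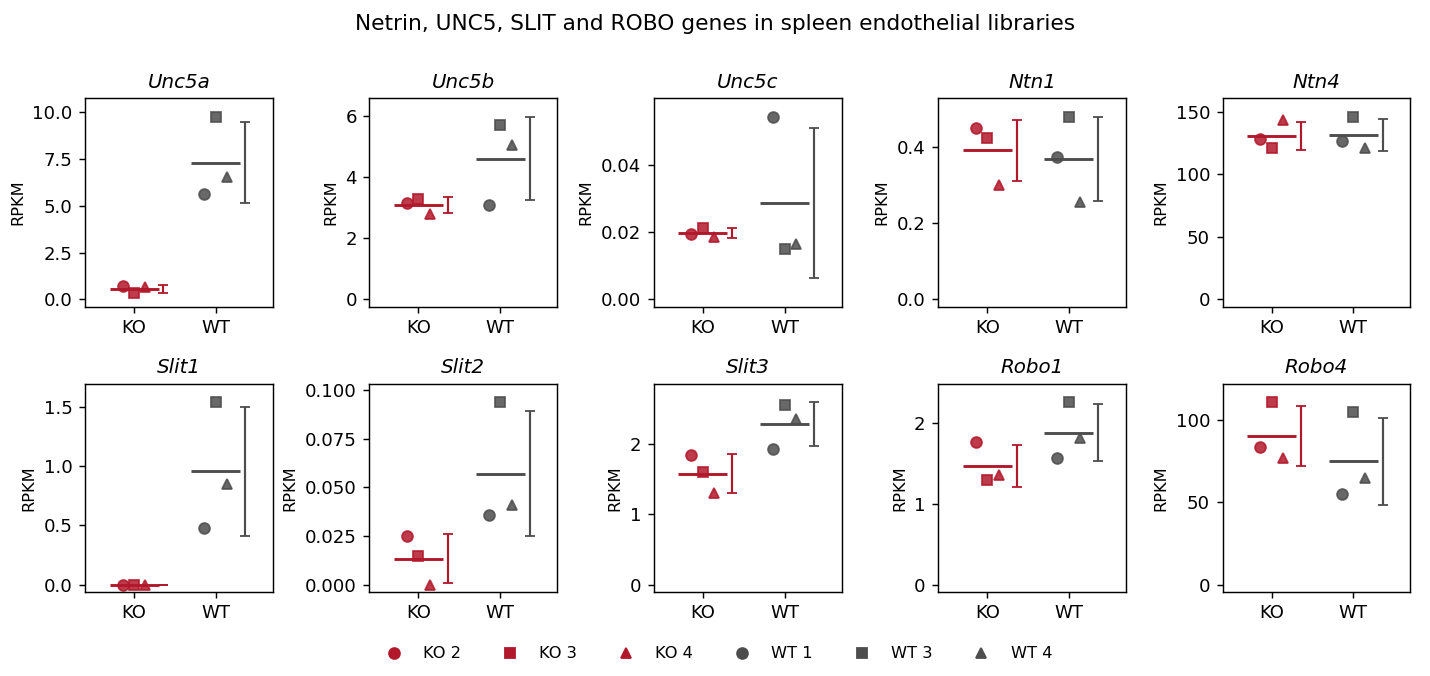
RPKM of the 10 genes in each library, KO left and WT right in every panel, with symbols for libraries, horizontal lines for group means and bars for the SD of 3 libraries; each panel has its own linear axis. Unc5a, Slit1, Slit2 and Slit3 show separate groups, with Slit1 at 0 in KO 2, KO 3 and KO 4, while Ntn4 averages 131 RPKM in both.

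Among the ligands, Ntn4, which encodes netrin-4, was the most abundant of the 10 genes. It had 128, 121 and 143 RPKM in KO 2, KO 3 and KO 4, against 127, 146 and 121 RPKM in WT 1, WT 3 and WT 4. The groups overlapped throughout, and the lowest library of each held the same rounded value. The means were 131 ± 11.4 RPKM in KO and 131 ± 13.4 RPKM in WT (SD, n = 3 each), with a log2 fold change of -0.01 ± 0.11 (SE). Ntn4 stood between the 96.7 and 97.7 percentiles of all genes in every library.

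Ntn1 encodes netrin-1, the ligand that binds DCC, neogenin and UNC5 receptors. It had 0.449, 0.422 and 0.299 RPKM in the KO libraries, against 0.372, 0.476 and 0.256 RPKM in the WT libraries. The ranges lay almost on each other, with a log2 fold change of 0.04, and the gene did not reach the filter. Ntn4 made up 98.8% to 99.5% of the summed RPKM of the secreted netrins Ntn1, Ntn3, Ntn4 and Ntn5 in KO, and 99% to 99.3% in WT. Ntn4 exceeded Ntn1 by 286 to 479 times in KO libraries and by 308 to 472 times in WT libraries.

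Slit1 was detected in WT libraries only. It had 0 reads in each of KO 2, KO 3 and KO 4, against 104, 409 and 202 reads in WT 1, WT 3 and WT 4. In RPKM this was 0 in KO throughout and 0.476, 1.54 and 0.844 in WT, so every WT library lay above every KO library. Taking 3 reads over the KO group as the most that a count of 0 allows, the KO level was at most 0.00405 RPKM, against 0.990 RPKM over the pooled WT libraries. Slit1 was thus at least 244-fold lower in KO, and at least 165-fold lower when WT 3 was left out. These limits cover counting error only. Slit1 lies on chromosome 19 from 41597824 to 41747275.

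A pairing of 0 reads in KO with this many in WT was not seen for another gene of the table. Of 911 genes with 0 reads in KO and at least 1 in WT, Slit1 had the most WT reads, 715. The next were 1700015E13Rik with 101 and Sostdc1 with 69, and the median of the 911 was 1 read. These genes were named after their values were seen. Slit1 reached 1 RPKM in 1 library only and so was not tested. In the authors' deposited table Slit1 had a log2 fold change of -8.75, a value that depends on how reads of 0 were handled.

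Slit2, a ligand that signals through ROBO1 and ROBO2, was near the limit of detection. It had 0.0252, 0.0148 and 0 RPKM in KO 2, KO 3 and KO 4 from 10, 6 and 0 reads, against 0.0360, 0.0941 and 0.0411 RPKM in WT 1, WT 3 and WT 4 from 12, 38 and 15 reads. The groups did not overlap, but the gap between KO 2 and WT 1 was 2 reads at unequal depth.

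Slit3 was the main SLIT of these cells. It had 1.85, 1.6 and 1.3 RPKM in KO 2, KO 3 and KO 4, against 1.94, 2.56 and 2.36 RPKM in WT 1, WT 3 and WT 4. KO 2 and WT 1 nearly touched, so the separation was narrow. The means were 1.58 ± 0.274 RPKM in KO and 2.29 ± 0.317 RPKM in WT (SD, n = 3 each), with a log2 fold change of -0.42 ± 0.19 (SE). Slit1 made up 0% of the summed SLIT RPKM in KO and 19.4%, 36.8% and 26.0% in WT 1, WT 3 and WT 4. With all 3 SLIT genes lower in KO, their sum was 1.88, 1.61 and 1.3 RPKM in KO 2, KO 3 and KO 4, against 2.45, 4.20 and 3.24 RPKM in WT 1, WT 3 and WT 4.

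Unc5b, the UNC5 receptor best known from endothelial sprouts, had 3.17, 3.30 and 2.79 RPKM in KO 2, KO 3 and KO 4, against 3.09, 5.71 and 5.06 RPKM in WT 1, WT 3 and WT 4. WT 1 fell inside the KO range, so the groups overlapped. The means were 3.09 ± 0.262 RPKM in KO and 4.62 ± 1.37 RPKM in WT (SD, n = 3 each), with a log2 fold change of -0.48 ± 0.22 (SE). WT 1 stood apart from the other two WT libraries, and the log2 fold change was -0.72 without it.

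The balance of the UNC5 pair differed between the genotypes in every library. Unc5a stood at 0.230, 0.101 and 0.230 of the Unc5b level in KO 2, KO 3 and KO 4, against 1.81, 1.7 and 1.29 times that level in WT 1, WT 3 and WT 4. Unc5a was therefore the lower of the pair in each KO library and the higher in each WT library. It made up 18.5%, 9.08% and 18.6% of the summed UNC5 RPKM in KO, against 63.9%, 62.7% and 56.2% in WT.

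Unc5c was barely detected. It had 0.0195, 0.0212 and 0.0184 RPKM in KO 2, KO 3 and KO 4, against 0.0542, 0.0149 and 0.0165 RPKM in WT 1, WT 3 and WT 4, from 7 to 21 reads per library. WT 1 was the highest and the other two WT libraries the lowest of all, so no order between the genotypes appears.

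**Figure D2:**
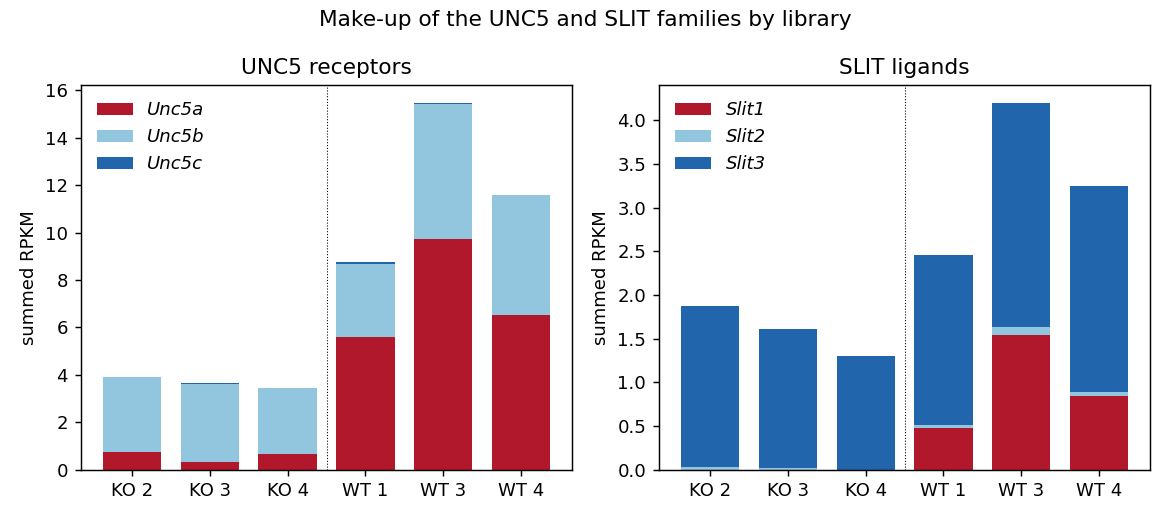
Summed RPKM of the UNC5 receptor genes (left) and the SLIT ligand genes (right) in each library, KO left of the dotted line and WT right of it, with colours for genes. Unc5a takes 9.08% to 18.6% of the UNC5 sum in KO and 56.2% to 63.9% in WT, and Slit1 takes 0% of the SLIT sum in KO and 19.4% to 36.8% in WT; Unc5d, at most 0.0643 RPKM in a library, is in the percentages and not drawn.

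Robo4, the ROBO receptor of endothelium, was the second most abundant of the 10 genes. It had 83.3, 111 and 76.8 RPKM in KO 2, KO 3 and KO 4, against 55.1, 105 and 65.0 RPKM in WT 1, WT 3 and WT 4. KO 3 and WT 3 were the high libraries of their groups, and the groups overlapped. The means were 90.3 ± 18.2 RPKM in KO and 75 ± 26.4 RPKM in WT (SD, n = 3 each), with a log2 fold change of 0.30 ± 0.22 (SE). The log2 fold change was 0.57 without WT 3, 0.11 without WT 1 and 0.15 without KO 3, so single libraries of both groups moved it.

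Robo1, a receptor of SLIT1, SLIT2 and SLIT3, had 1.76, 1.29 and 1.35 RPKM in KO 2, KO 3 and KO 4, against 1.57, 2.26 and 1.81 RPKM in WT 1, WT 3 and WT 4. KO 2 lay above WT 1, so the groups overlapped. The means were 1.47 ± 0.255 RPKM in KO and 1.88 ± 0.347 RPKM in WT (SD, n = 3 each), with a log2 fold change of -0.27 ± 0.20 (SE). Robo4 made up 97.5% to 98.6% of the summed RPKM of Robo1, Robo2, Robo3 and Robo4 in KO, and 96.2% to 97.2% in WT.

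Ordered by mean level, KO libraries ran Ntn4, Robo4, Unc5b, Slit3, Robo1, Unc5a, Ntn1, Unc5c, Slit2 and Slit1. WT libraries ran Ntn4, Robo4, Unc5a, Unc5b, Slit3, Robo1, Slit1, Ntn1, Slit2 and Unc5c. The neighbours whose library ranges overlapped in KO were Slit3 with Robo1, Unc5a with Ntn1, Unc5c with Slit2, and Slit2 with Slit1. In WT they were Unc5a with Unc5b, Slit3 with Robo1, and Slit2 with Unc5c. Unc5a thus stood beside Ntn1 in KO and beside Unc5b in WT.

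The WT libraries did not contribute evenly. WT 3 was the highest WT library for 9 of the 10 genes, all but Unc5c, whereas 36.6% of all genes tested were highest in WT 3. For Unc5a, Unc5b, Slit1, Slit2, Slit3, Robo1, Robo4 and Stab1 the order was WT 3, WT 4, WT 1. What sets this order was not tested.

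Markers of other cell types also differed between libraries. Nerve and Schwann cell markers summed to 9.82 to 12.0 RPKM in KO and 16.0 to 18.5 RPKM in WT, with 0 of 4 tested called and Elavl4, Th and Dbh at 0 in all 6 libraries. Megakaryocyte and platelet markers summed to 52.4 to 67.0 RPKM in KO and 82.6 to 228 RPKM in WT, and 1 of 7 was called, Pf4, lower in KO. Without Pf4 the sums overlapped, at 34.0 to 47.8 RPKM in KO and 46.3 to 140 RPKM in WT. Still, 0 of the 7 had a positive log2 fold change, and their median was -0.87. An unadjusted limma p under 0.05 was found for 3 of the 7, against 15.7% of all genes tested. Macrophage and monocyte markers summed to 239 to 340 RPKM in KO and 384 to 437 RPKM in WT, and 1 of 5 tested was called, Fcer1g, lower in KO. Fcer1g, at 55.5 to 115 RPKM in KO and 215 to 232 RPKM in WT, set these sums apart. Without it they overlapped at 184 to 225 RPKM in KO and 168 to 207 RPKM in WT. Most of that remainder was Vcam1, with 174, 176 and 212 RPKM in KO 2, KO 3 and KO 4. In WT 1, WT 3 and WT 4 Vcam1 had 183, 181 and 155 RPKM. Vcam1 was the only 1 of the 5 tested with a positive log2 fold change, and their median was -0.51. An unadjusted limma p under 0.05 was found for 3 of the 5, against 15.7% of all genes tested. For smooth muscle and pericyte markers the sums were 347 to 463 RPKM in KO and 341 to 578 RPKM in WT, and 1 of 9 was called, Rgs5, lower in KO. Leaving out 1 library ended the call of Pf4 in 1 of 6 fits (without KO 3), of Rgs5 in 3 and of Fcer1g in 0.

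Reticular and fibroblast markers summed to 98.8 to 147 RPKM in KO and 106 to 279 RPKM in WT, with 0 of 10 tested called. Mesothelial markers summed to 2.99 to 6.98 RPKM in KO and 2.06 to 18.3 RPKM in WT, with 0 of 4 tested called. Erythroid markers summed to 9.86 to 55.3 RPKM in KO and 18.5 to 84.1 RPKM in WT, with 0 of 4 tested called. Of these 4, 0 had a positive log2 fold change, and their median was -0.67. The largest change was that of Car1, with 10.6, 1.36 and 0.510 RPKM in KO 2, KO 3 and KO 4. In WT 1, WT 3 and WT 4 Car1 had 39.2, 39.2 and 5.49 RPKM. Its groups overlapped (log2 fold change -2.94, limma adjusted p = 0.157). Hba-a1, which has a near-identical copy, was listed at 0 in all 6 libraries. B and T cell markers summed to at most 1.67 RPKM in KO and 1.33 RPKM in WT. The part of these cells in the Unc5a and Slit1 values was not tested. In bulk RNA, fewer cells of a type and less RNA per cell cannot be told apart.

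Beyond the 10 genes, the other ligands, receptors and coreceptors of the pathway were looked at. Of 30 such genes, 13 reached the filter and 0 were called, meaning a limma adjusted p under 0.05, and voom on the recovered reads also called 0. Over all 11035 genes tested 1.94% were called, 1.27% lower and 0.671% higher in KO, so a count of 0 in 13 is close to the background. An unadjusted p under 0.05 was found for 0 of the 13, against 15.7% of all genes tested. Their median log2 fold change was 0.11, beside 0.03 over all genes tested. Neo1, which encodes the netrin receptor neogenin, had 2.61 ± 0.291 RPKM in KO and 2.04 ± 0.624 RPKM in WT (SD, n = 3 each; limma adjusted p = 0.488). Mcam, which encodes a vascular adhesion molecule that binds netrin-1, had 52.5 ± 11.3 RPKM in KO and 55.0 ± 13.4 RPKM in WT (limma adjusted p = 0.908).

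Flrt2 and Flrt3 encode membrane proteins that bind UNC5 receptors. Flrt2 had 18.4 ± 2.14 RPKM in KO and 20.1 ± 2.91 RPKM in WT (limma adjusted p = 0.691). Flrt3 varied more, with 1.89 ± 0.941 RPKM in KO and 2.79 ± 1.12 RPKM in WT (limma adjusted p = 0.518). Adgrl2, listed in the table as Lphn2, encodes an adhesion receptor that binds FLRT proteins and had 9.46 ± 0.628 RPKM in KO and 8.67 ± 2.35 RPKM in WT (limma adjusted p = 0.727).

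Dag1, which encodes the SLIT-binding matrix receptor dystroglycan, had 34.1 ± 4.24 RPKM in KO and 28.2 ± 9.45 RPKM in WT (limma adjusted p = 0.508). Gpc1, which encodes a heparan sulfate proteoglycan, had 4.24 ± 1.14 RPKM in KO and 3.76 ± 0.709 RPKM in WT (limma adjusted p = 0.773). Plxna1, which encodes a semaphorin receptor, had 4.23 ± 0.396 RPKM in KO and 3.79 ± 0.602 RPKM in WT (limma adjusted p = 0.700). Of the remaining genes named by level, Rgmb, which encodes a neogenin ligand, Ndnf, listed as A930038C07Rik, and Lrig1, Lrig2 and Lrig3 had log2 fold changes of -0.01, 0.34, 0.11, 0.04 and -0.38, with limma adjusted p of 0.985, 0.413, 0.831, 0.938 and 0.423.

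Of the 30 genes, 4 were listed at 0 in all 6 libraries, among them Dcc, the classic netrin receptor. Robo2 had 0.347, 0.293 and 0.444 RPKM in KO 2, KO 3 and KO 4, against 0.504, 0.732 and 0.756 RPKM in WT 1, WT 3 and WT 4. Its groups did not overlap, but it lay below the filter and was not tested. Dcc and Robo2 were named after their values were seen.

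Effectors that netrin and SLIT receptors use to move the cytoskeleton numbered 46, of which 36 were tested. Of these 0 were called, with voom on the recovered reads also, and 6 had an unadjusted p under 0.05. With 1.94% of all genes called and 15.7% at an unadjusted p under 0.05, both counts are near the background. Their median log2 fold change was 0.08. Groups did not overlap for 4 that were higher in KO, where 10.7% of all genes tested were apart in that direction. They also did not overlap for 1 that was lower, where that share was 9.57%. Tubb3, a neuronal tubulin that binds netrin receptors, had 3.08, 2.48 and 2.71 RPKM in KO 2, KO 3 and KO 4, against 5.0, 4.52 and 4.84 RPKM in WT 1, WT 3 and WT 4. It had the smallest p of the list and missed the threshold (log2 fold change -0.70 ± 0.16, limma adjusted p = 0.0637). Tubb3 also counts among the nerve markers above.

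The next 5 effectors by p were Fyn, Rhoa, Nck1, Maged1 and Pxn. Fyn, a kinase that phosphorylates netrin receptors, had 126 ± 4.51 RPKM in KO and 102 ± 8.0 RPKM in WT (SD, n = 3 each; limma adjusted p = 0.151). Rhoa, a GTPase of the actin cytoskeleton, had 268 ± 17.1 RPKM in KO and 221 ± 12.3 RPKM in WT (limma adjusted p = 0.189). Nck1, an adaptor between receptors and actin, had 84.7 ± 19.0 RPKM in KO and 113 ± 13.9 RPKM in WT (limma adjusted p = 0.230, and 0.0369 when KO 4 was left out). Maged1, which binds the UNC5A protein, and Pxn, which encodes the adhesion protein paxillin, had log2 fold changes of 0.27 and 0.36, with limma adjusted p of 0.257 and 0.270.

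**Figure D3:**
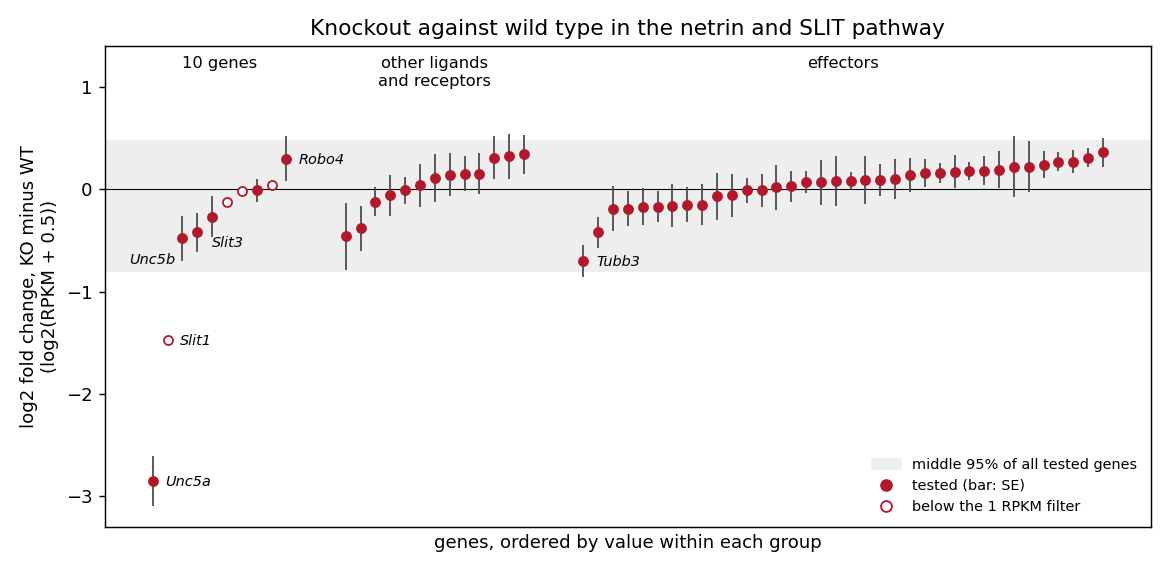
Log2 fold change, KO minus WT, on the log2(RPKM + 0.5) scale for the 10 genes, for the 13 other ligands and receptors and for the 36 effectors that reached the filter, ordered by value within each set. Bars are standard errors, open symbols are genes below the filter, and the grey band from -0.80 to 0.47 holds the middle 95% of all genes tested; Unc5a at -2.85 and Slit1 at -1.47 lie below it.

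Genes whose levels ran most like Unc5a were sought over the 6 libraries by Pearson correlation of log2(RPKM + 0.5), as a description. The 5 highest were Mir7-1 (r = 0.994), Ncoa4 (0.992), Stab1 (0.989), 4930471M23Rik (0.988) and Zfp955a (0.988). All 5 were lower in every KO library than in any WT library, so the difference between the genotypes shapes these values. Ncoa4, the receptor for autophagy of ferritin, fell to 0.891 ± 0.110 RPKM in KO, against 3.69 ± 0.492 RPKM in WT (limma adjusted p = 0.00264). Mir7-1 rested on 0 to 9 reads per library. Stab1 and Ncoa4 lie close together on chromosome 14, from 31139017 to 31168651 and from 32159879 to 32179855. Whether that position bears on the Ncoa4 values was not tested.

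With each group's mean taken away, other genes ran closest to Unc5a. They were Nde1 (r = 0.998), Snord17 (0.997), Sema6a (0.994), Pde8a (0.993) and Atl3 (0.992), again over 6 libraries that share their preparation. These 5 had log2 fold changes between -0.09 and 0.41, and the genotypes overlapped for each. They were picked as the highest of 11035 tested genes over 6 libraries, so such r can arise from the search alone. Snord17 rested on 6 to 20 reads per library.

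Genes on either side of Unc5a were looked at next. Within 250 kb, 5 genes were tested and 0 were called. Uimc1, which encodes a DNA repair protein and lies 21.9 kb away, had 13.1 ± 1.12 RPKM in KO and 14 ± 0.647 RPKM in WT (SD, n = 3 each; limma adjusted p = 0.734). Zfp346, Tspan17, Gprin1 and Nsd1 had log2 fold changes of 0.34, 0.07, 0.18 and -0.36, with limma adjusted p of 0.303, 0.759, 0.712 and 0.346. For Zfp346 the groups did not overlap, with 7.04 to 8.06 RPKM in KO and 5.28 to 6.26 RPKM in WT. Of all genes tested, 10.7% were apart in that direction. Fgfr4, Hk3 and Sncb were below the filter, with log2 fold changes of 0.44, -0.32 and 0.03, and Cdhr2 and Eif4e1b were listed at 0 in all 6 libraries.

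Unc5a and Hk3, on opposite strands, share 34 exon bases in GENCODE M21, and the libraries do not mark strand. Hk3, a hexokinase gene of blood cells, had at most 0.344 RPKM in KO and 0.506 RPKM in WT. Unc5c shares 118 exon bases with the antisense gene Gm15688, so reads there cannot be told apart either.

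Within 5 Mb of Unc5a, 2 of 62 other tested genes (3.23%) were called, both lower in KO. Of all genes tested, 1.94% were called and 1.27% were called lower. Ror2, a receptor for WNT5A that lies 1.66 Mb away, fell to 0.628 ± 0.107 RPKM in KO, against 1.71 ± 0.357 RPKM in WT (limma adjusted p = 0.0453), a call lost on leaving out any 1 library (0.0735 without KO 4). Mir7-1, a microRNA gene 3.39 Mb away, was the other, and its call was lost with voom and without KO 3.

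Next to Slit1, 3 of 89 other tested genes within 5 Mb (3.37%) were called, against 1.94% of all genes tested. All 3 were lower in KO, where 1.27% of all genes tested were called lower, and all lay near the far edge of the window. Tmem180 fell to 0.287 ± 0.155 RPKM in KO, against 2.32 ± 0.141 RPKM in WT (limma adjusted p = 0.00239), 4.61 Mb away. Arl3, a GTPase of cilia, fell to 32.5 ± 1.36 RPKM in KO, against 57.8 ± 12.5 RPKM in WT (limma adjusted p = 0.0272), 4.78 Mb away. Sfxn2, a mitochondrial carrier gene, fell to 0.973 ± 0.308 RPKM in KO, against 2.69 ± 0.240 RPKM in WT (limma adjusted p = 0.0247), 4.83 Mb away. The Arl3 and Sfxn2 calls were lost in 3 and 5 of the 6 fits that each leave out 1 library.

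Gm19424, whose annotated span overlaps that of Slit1, was listed at 0 in all 6 libraries. The nearest detected gene, Lcor, ends 1.66 kb from Slit1 and encodes a nuclear receptor corepressor. Lcor had 0.483, 0.553 and 0.546 RPKM in KO 2, KO 3 and KO 4, against 1.37, 1.11 and 1.14 RPKM in WT 1, WT 3 and WT 4. Its groups did not overlap, but it missed the threshold (log2 fold change -0.73 ± 0.19, limma adjusted p = 0.0937, and 0.0302 to 0.327 over its alternatives, the lowest with voom). On the other side Arhgap19, 19.3 kb away, had 0.545 ± 0.359 RPKM in KO and 0.494 ± 0.220 RPKM in WT (SD, n = 3 each). Gm19424, Lcor and Arhgap19 were named after their values were seen.

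Over the windows of all 10 genes, 10 of 468 tested genes were called, 3 higher and 7 lower in KO, where 1.94% of all genes tested were called. Near Unc5b these were Ccar1 and Gcc2, both lower (limma adjusted p = 0.0458 and 0.0481). Ldb2 near Slit2, Stc2 near Slit3 and Hspa8 near Robo4 rose in KO, with limma adjusted p of 0.00785, 0.0398 and 0.0488. Leaving out each library in turn ended the call of Ldb2 in 1 of 6 fits (without KO 2), of Hspa8 in 3, of Ccar1 and Gcc2 in 5 and of Stc2 in all 6. No tested gene was called within 5 Mb of Unc5c, Ntn1, Ntn4 or Robo1.

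**Figure D4:**
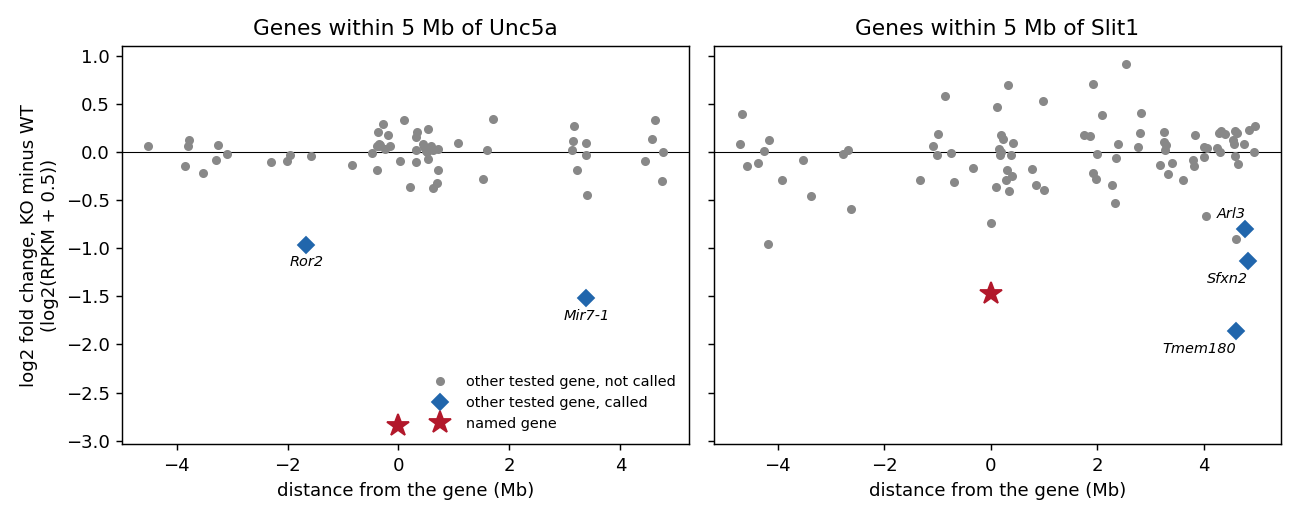
Log2 fold change, KO minus WT, on the log2(RPKM + 0.5) scale, of tested genes within 5 Mb of Unc5a (left) and Slit1 (right), against distance from the gene in Mb. Stars are Unc5a and Slit1, diamonds are called genes and grey points are tested genes without a call; the called genes are Ror2 and Mir7-1 near Unc5a, and Tmem180, Arl3 and Sfxn2 near Slit1.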

How the data were processed

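RNA-seq of 6 libraries from sorted spleen endothelial cells (3 KO, 3 WT) was analysed. Per the labels' protocols, amplified cDNA from a SMART-Seq kit went into Nextera XT library preparation. These kits do not mark strand. Per the submitters' processing notes, the authors used mm10 with STAR 2.5.2b and Subread, and also edgeR and limma; settings are not given in the sources used here. The authors deposited RPKM for 23337 genes, per the file headers, and a table and lists of their own comparison with log2 fold changes, signed fold changes (scores) and p-values, raw and adjusted. Column numbers differ from the labels' replicate numbers, so columns were matched by genotype alone.

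Since RPKM are not counts, the count tests foreseen for deposited counts were not used. The 11035 genes that reached 1 RPKM in 3 or more of 6 libraries were fitted by genotype as log2(RPKM + 0.5), with limma 3.58.1 (R 4.3.3; intensity trend), with Benjamini-Hochberg adjustment over all of them and a threshold of 0.05. The fit was tested on simulated data. For 17673 of 17683 genes above 0 (99.94%) the values came out as whole reads (tolerance 0.001). Those reads gave the depth, leaving out the other 10 genes, and were fitted with voom as an alternative chosen after the data were seen. Scaling factors besides depth were 0.979 to 1.032. Libraries of a group differed beyond counting noise (29.6 to 97.3 chi-square units per degree of freedom), so none was treated as a copy.

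The 10 genes, the pathway lists and the marker lists were chosen with earlier results of these data known. List symbols matched 155 of 156 entries, 5 of them by an older symbol. The genes named are the 10, Stab1, pathway genes with a mean of at least 1 RPKM or called, effectors called or among the 6 of smallest p, the 5 most like Unc5a by each measure, genes within 250 kb of Unc5a, and called genes within 5 Mb of the 10. Marker genes named were those called or at 0, and Vcam1 and Car1, which were named after their values were seen. Coordinates and promoters came from RefSeq GRCm38.p6 (23077 genes matched), and exon overlaps from GENCODE M21. Figures used Python 3.11.15 and matplotlib 3.10.9. Alternatives were other pseudocounts, filters and scalings, each library left out, voom, and the columns' own numbers as a block.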

Additional observations from a re-analysis of the deposited data

How the results depend on the processing

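The log2 fold change of Unc5a, given without a test, was -2.85 and became -3.48 with a pseudocount of 0.1, -2.38 with a pseudocount of 1 and -3.74 with voom on recovered reads. The 214 calls over all genes became 77 without a filter on low values; leaving out 1 library gave 56 (without KO 3) to 418 (without KO 4), with 83 without KO 2 and 93 without WT 4. Other ligands and receptors gave 0 calls in every alternative run, and effectors gave 0 in each except without KO 4, where Nck1 was called (range 0 to 1). Calls within 5 Mb of the 10 genes, 10 in all, became 5 without a filter, 4 at a filter of 5 RPKM and 6 with quantile normalization, and 2 (without KO 2 or KO 3) to 15 (without KO 4) with 1 library left out, with 5 without WT 1 and 6 without WT 3 or WT 4. Log2 fold changes of Unc5b, Slit1, Slit2, Slit3, Robo1 and Robo4 kept their sign in every alternative that gave one, whereas those of Unc5c, Ntn1 and Ntn4, all near 0, did not. Median centring shifted no library by more than 0.041 on the log2 scale. The labels' replicate numbers are not those of the deposited columns, but the columns' own numbers 3 and 4 occur in both genotypes. With them as a replicate block, chosen after the data were seen and leaving 1 residual degree of freedom, calls were 355 over all genes, 16 within 5 Mb of the 10 genes and 0 in both pathway lists. The calls of Gcc2, Sfxn2 and Stc2 were lost there, and Unc5a had a log2 fold change of -3.12. Deviations from the group means correlated across genes at 0.193 for each shared number. Only the number is known to be shared, so these libraries are not taken as pairs. Depth limits Slit2 and Unc5c, at 0 to 38 and 7 to 21 reads per library, more than the other genes.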
